A study of Mus musculus with 31 samples.

Results

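The immediate early response genes described here are Fos, Fosb, Junb, Egr1, Arc, Npas4, Nr4a1, Dusp1, Ier2 and Btg2. They were chosen by symbol, and every probe set annotated to one of these symbols alone was taken, which gave 11 probe sets for the 10 genes among 45101 probe sets and 18194 named genes on the arrays. Btg2 had 2 probe sets (1416250_at and 1448272_at) and each other gene had 1. The series, a comparison of natural and induced regulatory T cells (Treg), holds 31 Affymetrix mouse arrays, 1 per sample, in 10 label groups. Across those arrays the highest reading was between 1.43 times (Fos) and 3.09 times (Junb) the lowest for the 8 brighter genes. Fosb lay near the level of negative controls. On quantile normalised values no more than 3 of the genes passed the test in any comparison of label groups. In the comparison with 3, 16.6% of all tested genes passed. There 7 of the genes passed on the values as deposited, and 0 passed in a fit that allows for the 3 sets of arrays described below.

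All groups are labelled as CD4+ T cells sorted from spleens and lymph nodes of mice whose Foxp3 gene carries a green reporter, either the bicistronic Foxp3/EGFP allele or the mutant Foxp3deltaEGFP allele, here called Foxp3-delta. Induced Treg (5 arrays) are Foxp3/EGFP cells that lacked the reporter, were stimulated through CD3 and CD28 with TGF-beta for 3 days and then switched the reporter on. Failed induced Treg (3 arrays) came from those cultures without the reporter, and induced Foxp3-delta cells (3 arrays) were made the same way from mutant mice, with males given as the source of the starting cells. The arrays labelled IL-2 induced Treg (2) and IL-2 induced Foxp3-delta (2) stand for such cells after 1 week more in culture with 100 units per ml of interleukin 2. Activated natural Treg (3) are Foxp3/EGFP reporter-positive cells stimulated with both antibodies and TGF-beta, and natural Treg (4) are the same cells unstimulated. Natural Foxp3-delta cells (2) are unstimulated reporter-positive cells of heterozygous Foxp3-delta females. Activated T (4) are reporter-negative Foxp3/EGFP cells given both antibodies without TGF-beta, and conventional T (3) are unstimulated CD4+ cells of Foxp3/EGFP mice. Nothing in the labels tells whether a group's samples are separate cultures or animals. Each p-value below therefore rests on sample-to-sample spread alone, part of which may be technical.

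Immediate early genes are transcribed within minutes of a stimulus, from factors already present in the cell, and their messages are short-lived. In T cells they follow engagement of the antigen receptor, and in neurons they follow synaptic activity and calcium entry. Kinase cascades that end on the factors CREB, SRF and the ternary complex factors switch them on, and several of the products then feed back on the same cascades. The interval between stimulation and the RNA preparation was 3 days for the induced groups and is not given for the activated groups in the sources used here.

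The arrays went against their labels. Of 14 T cell markers, 12 had a probe set, and of these Zap70 alone averaged above the table's median intensity of 39.82, while none was at 0. Cd3e averaged 38.6 intensity units, Cd3d 14.6, Cd4 20.4 and Foxp3 12.7. Of 8 neuron markers 7 averaged above the table's median (Slc17a7, at 16.2, did not), as did 5 of 5 myelin and 5 of 5 astrocyte markers, among them Snap25 at 10300 and Mbp at 20100. The groups are therefore named below only by what their arrays were labelled. The arrays also fell into 3 sets by their hybridisation controls, deposited median and brightest values: a set of 15 that includes all arrays labelled natural Treg, conventional T and IL-2 induced, a set of 10 that includes all arrays labelled activated natural Treg and 3 of the 4 labelled activated T, and a set of 6. The sets are not given by the labels, and each comparison is given by a fit without them and by a fit blocked by array set. In RNA of a mixed sample, fewer cells of a type and less RNA per cell cannot be told apart.

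The promoters of the members that passed a test in any comparison, Fos, Junb, Nr4a1 and Dusp1, are shown because immediate early genes are known as targets of CREB and of EGR factors, whose motifs can be read in these windows. Each line holds the 250 bases before the transcription start listed by RefSeq (GRCm38.p6), read 5′ to 3′ on the gene's strand. Capitals mark the short CRE motif TGACG (or CGTCA, its reverse complement), the full CRE TGACGTCA, the EGR motif GCGNGGGCG (here as its reverse complement) and the TATA motif TATAAA. Fos lies at chr12:85473640-85473889 (plus strand), Junb at chr8:84978749-84978998 (minus strand), Nr4a1 at chr15:101266596-101266845 (plus strand) and Dusp1 at chr17:26508473-26508722 (minus strand).
Fos: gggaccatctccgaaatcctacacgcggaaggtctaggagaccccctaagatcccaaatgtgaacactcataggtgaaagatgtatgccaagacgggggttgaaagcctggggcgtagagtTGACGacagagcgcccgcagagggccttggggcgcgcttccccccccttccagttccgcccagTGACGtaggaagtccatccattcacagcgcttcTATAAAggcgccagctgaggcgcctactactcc
Junb: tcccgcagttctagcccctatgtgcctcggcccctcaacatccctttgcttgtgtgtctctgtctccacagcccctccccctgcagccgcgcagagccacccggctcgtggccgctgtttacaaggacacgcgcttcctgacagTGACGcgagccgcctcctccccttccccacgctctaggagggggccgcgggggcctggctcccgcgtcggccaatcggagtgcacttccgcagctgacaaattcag
Nr4a1: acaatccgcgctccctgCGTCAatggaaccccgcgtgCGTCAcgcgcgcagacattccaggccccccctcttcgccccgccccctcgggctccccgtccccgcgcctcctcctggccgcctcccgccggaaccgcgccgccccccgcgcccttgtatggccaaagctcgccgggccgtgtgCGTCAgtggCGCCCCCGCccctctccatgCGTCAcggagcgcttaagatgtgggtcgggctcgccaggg
Dusp1: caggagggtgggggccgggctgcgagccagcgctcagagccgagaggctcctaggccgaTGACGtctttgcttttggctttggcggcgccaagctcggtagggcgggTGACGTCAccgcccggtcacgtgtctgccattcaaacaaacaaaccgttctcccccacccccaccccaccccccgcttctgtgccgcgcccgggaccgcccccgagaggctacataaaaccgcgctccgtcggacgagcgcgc
The windows of 7 of the 10 members were searched on both strands. RefSeq's table listed none for Arc and Ier2, and Egr1 was left out of the search, so the counts do not cover it. The short motif TGACG was present in 7 of 7 windows and in 17.9% of 27025 promoters of the same length. The full TGACGTCA, which contains the short motif, was present in Dusp1 and Btg2, 2 of 7, and in 1.62% of all promoters. The EGR motif GCGNGGGCG was found in Fosb, Nr4a1 and Btg2, 3 of 7, and in 4.65% of all promoters. TATAAA was found in Fos alone, 1 of 7, and in 13.0% of all promoters. The AP-1 motif TGANTCA was in 0 of 7 windows and in 6.87% of all promoters, and the CArG box was in 0 of 7 and in 1.4%. In the Fos window the nearer TGACG ended 62 bases before the start and TATAAA began 33 bases before it. The Nr4a1 window held 4 copies of the short CRE motif, the nearest of them 40 to 36 bases before the start. A match is a run of letters and was not tested as a binding site. Only exact matches within the 250 bases were counted, so a site farther upstream or with a changed base would be missed.

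Values are quantile normalised intensities, and differences and spreads are on the log2(intensity + 16) scale, which understates changes of dim genes. Of the 10 members, 8 lay above the table's median on at least 2 arrays and entered the tests over 12169 genes. Fosb and Npas4 did not.

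Among the AP-1 subunits, Fos, which pairs with Jun proteins to form AP-1, read between 369 and 526 on all 31 arrays (449 ± 42.4, SD). Its partner Junb read between 19.9 and 61.4 (35.9 ± 8.02) and was above the table's median on 10 arrays. Fosb, a paralog of Fos, read between 10.1 and 15.1 with a mean of 12.9. The median of the 27 negative control probe sets was 8.549 and their 95th percentile 13.75, a level that Fosb passed on 7 of 31 arrays. Fosb thus gave little signal above background on any array. In a fit of all 18194 genes it passed in no comparison, the F test included (limma adjusted p = 0.336).

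Among the other transcription factors, Egr1, a zinc finger factor, read between 405 and 713 (561 ± 77.7). Nr4a1, an orphan nuclear receptor induced by antigen receptor signals, read between 107 and 158 (133 ± 11.7), with its highest array 1.47 times its lowest. Npas4, a factor that neurons induce on calcium entry, read between 19.6 and 37.6 (27.5 ± 5.61), above the negative controls' 95th percentile on all 31 arrays and above the table's median on 0. No array thus placed Npas4 in the brighter part of the table.

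Among the effectors, Arc, a synaptic protein of neurons, read between 58.6 and 140 (93.9 ± 18.4). Dusp1, a phosphatase that switches off MAP kinases, read between 349 and 700 (519 ± 82.9). Ier2, a nuclear protein of the early response, read between 75.8 and 127 (91.9 ± 8.7), and all but 1 array lay at or under 100.3. The brighter Btg2 probe set (1416250_at), for an antiproliferative factor that binds the deadenylase complex, read between 70.3 and 148 (105 ± 17). The dimmer one (1448272_at) read between 43.2 and 71.8 (61 ± 7.74). Over 31 arrays the 2 Btg2 probe sets correlated weakly (Pearson r = 0.15, permutation p = 0.432; Spearman rho = 0.3, permutation p = 0.104), and r was 0.26 without the 2 arrays farthest from the median. Within the sets of 15, 10 and 6 arrays r was 0.76, 0.06 and 0.68, with the lowest value in the set of 10.

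**Figure D1:**
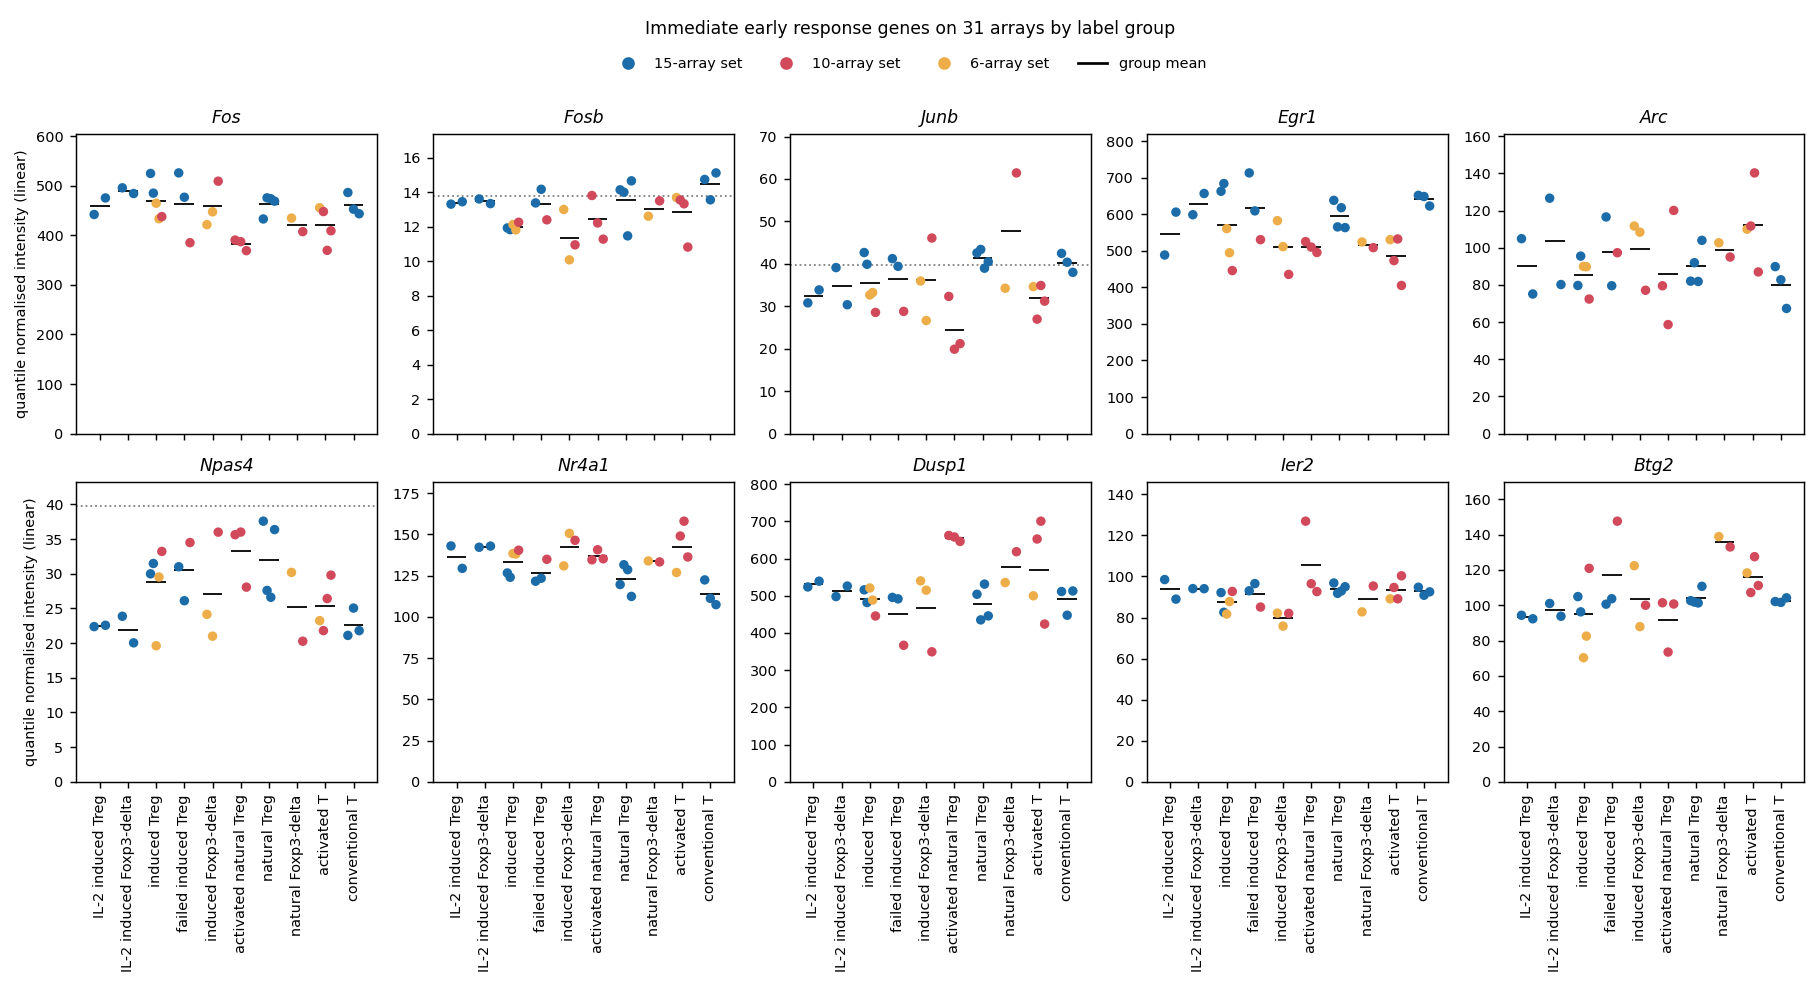
Quantile normalised intensity (linear axis from 0) of the 10 immediate early response genes on each of 31 arrays, by label group, with array sets in colour and a bar for the group mean; Btg2 is shown by its brighter probe set. The dotted line is the negative controls' 95th percentile (13.75) for Fosb and the table's median (39.82) for Junb and Npas4. Most groups overlap in every panel, and the natural Foxp3-delta group holds the highest Junb array at 61.4. For Dusp1 the 3 activated natural Treg arrays stand together at 646 to 662, and the highest array is an activated T array at 700.

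Across the groups, Fos averaged 459 ± 23.6 on IL-2 induced Treg arrays, 490 ± 8.17 on IL-2 induced Foxp3-delta, 469 ± 37.5 on induced Treg, 463 ± 71.6 on failed induced Treg and 459 ± 45.1 on induced Foxp3-delta arrays (SD, n as given above). It averaged 382 ± 11.5 on activated natural Treg, 463 ± 20.1 on natural Treg, 421 ± 19.3 on natural Foxp3-delta, 421 ± 39.6 on activated T and 461 ± 22.6 on conventional T arrays. The highest group mean was 1.28 times the lowest. Of the 9 pairs of neighbours in the order of Fos means, 8 overlapped, and the gap lay between IL-2 induced Treg and natural Foxp3-delta. Dusp1 averaged 531 ± 11 on IL-2 induced Treg, 512 ± 19.9 on IL-2 induced Foxp3-delta, 491 ± 30.2 on induced Treg, 451 ± 73.2 on failed induced Treg and 468 ± 104 on induced Foxp3-delta arrays. It averaged 655 ± 8.29 on activated natural Treg, 479 ± 46.1 on natural Treg, 577 ± 58.6 on natural Foxp3-delta, 569 ± 129 on activated T and 491 ± 37.2 on conventional T arrays. The activated natural Treg arrays lay above every natural Foxp3-delta array for Dusp1, and the other 8 pairs of neighbours overlapped.

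Junb averaged 24.5 ± 6.84 on activated natural Treg arrays, its lowest group mean, and 47.8 ± 19.2 on natural Foxp3-delta arrays, its highest. The natural Foxp3-delta mean rests on 1 array, since its replicates read 34.25 and 61.4. Egr1 averaged 485 ± 60.1 on activated T arrays, its lowest, and 641 ± 16 on conventional T arrays, its highest. For Nr4a1 the means of induced Foxp3-delta (143 ± 10.4), IL-2 induced Foxp3-delta (143 ± 0.478) and activated T arrays (143 ± 13.7) stood together at the top, and conventional T arrays had the lowest at 114 ± 7.83. All 9 pairs of neighbours overlapped for Junb, Egr1 and Nr4a1. Arc averaged 112 ± 21.8 on activated T arrays, its highest, and 80 ± 11.5 on conventional T arrays, its lowest, which overlapped, and 1 of its 45 pairs of groups did not overlap. Npas4 averaged 33.2 ± 4.48 on activated natural Treg arrays and 22 ± 2.71 on IL-2 induced Foxp3-delta arrays, its highest and lowest groups. Ier2 had its highest mean on activated natural Treg arrays (105 ± 18.8) and its lowest on induced Foxp3-delta arrays (80 ± 3.62). Btg2 was highest on natural Foxp3-delta arrays (136 ± 4.14) and lowest on activated natural Treg arrays (91.9 ± 15.9). Its second probe set was also lowest on activated natural Treg arrays (51.2 ± 2.87) but highest on conventional T arrays (67.2 ± 0.197).

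The spread between arrays lay below that of the median gene for some members and above it for others. The SD over 31 arrays was 0.24 log2 units for Arc, the 87.5th percentile of the 12169 tested genes, 0.224 for Dusp1 (83.1st percentile) and 0.221 for Junb (82.2nd percentile). It was 0.202 for Btg2, 0.197 for Egr1, 0.134 for Fos, 0.115 for Nr4a1 and 0.11 for Ier2. Fos, Nr4a1 and Ier2, 3 of the 8, varied less than the median gene. The members' median SD was 0.199 against 0.159 for all tested genes, and after the group means were removed it was 0.173 against 0.143. The order turned under other scalings, at 0.185 against 0.194 with array medians scaled to one value and 0.326 against 0.345 on the values as deposited. Label groups took a median of 48.7% of the members' variance, against 41% for all tested genes and 30% expected of 10 random groups of these sizes. The array sets took 23.7% of the members' variance at the median, against 24.2% for all tested genes and 6.67% expected of random sets. Egr1 and Fos stood out among the members in this, with 63.5% and 48.9% of their variance between array sets, against 4.57% for Dusp1, 6.4% for Arc and 7.85% for Btg2.

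**Figure D2:**
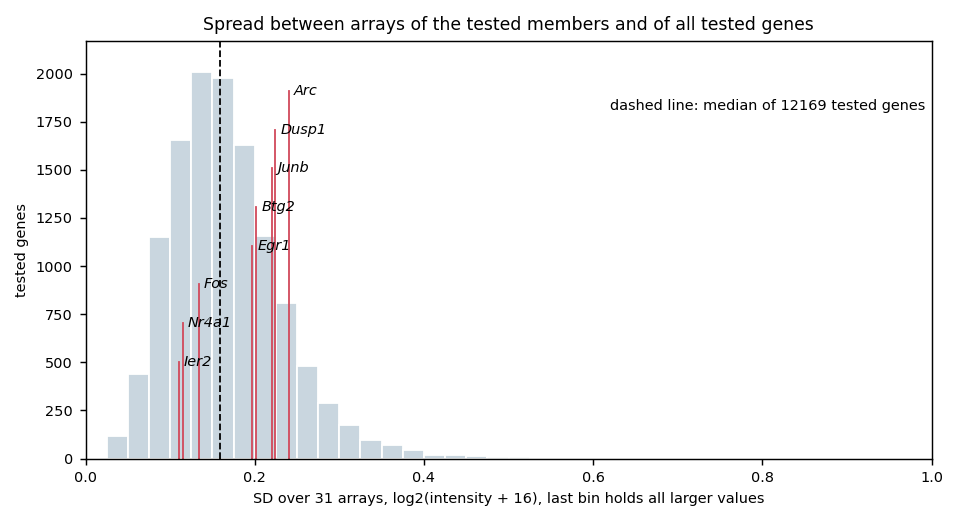
Histogram of the SD over 31 arrays (x axis, log2(intensity + 16)) of the 12169 tested genes (y axis, number of genes), with a red line at each tested member and a dashed line at the median gene (0.159); the height of a red line has no meaning. Ier2, Nr4a1 and Fos lie left of the dashed line, and Arc (0.24) lies farthest right.

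Whether any label groups differed was asked once per gene with limma's moderated F test over the 10 groups. No member passed: 0 of 8 had an adjusted p under 0.05, where 13.6% of all tested genes did, and 4 of 8 had an unadjusted p under 0.05, where 31.1% did. Nr4a1 came nearest (limma, adjusted p = 0.0582), followed by Junb (0.104) and Dusp1 (0.146). Nr4a1 passed without failed induced Treg array 3, induced Foxp3-delta array 1 or activated T array 1 (limma adjusted p = 0.0406, 0.0483 and 0.0289). Fos passed without failed induced Treg array 3 (0.0423) and Junb without natural Foxp3-delta array 1 (0.0231). In the fit blocked by array set the count was also 0, where 1.26% of all genes were called.

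The comparison of activated with unstimulated T cell labels asks what stimulation through CD3 and CD28 changes. Nr4a1 rose and was the only member that passed, 1 of 8, where 6.71% of all tested genes did. Egr1, Nr4a1 and Arc, 3 of 8, had an unadjusted p under 0.05, as 24.4% of all genes did. Nr4a1 read 127, 149, 158 and 136 on activated T arrays, against 122, 111 and 107 on conventional T arrays. The groups did not overlap, and every activated T array was above the highest conventional T array. The log2 difference was 0.29 (SE 0.07, limma adjusted p = 0.0187), and it was -0.22 on the values as deposited, where the median gene differed by -0.36. It was 0.15 in the fit blocked by array set (adjusted p = 0.619), and the call ended without activated T array 2 (limma adjusted p = 0.0535) or 3 (0.0582) or conventional T array 2 (0.0824) or 3 (0.0888).

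Egr1 read 530.5, 473, 532 and 405 on activated T arrays, against 652, 649 and 623 on conventional T arrays. Every activated T array was lower, but the log2 difference of -0.40 (SE 0.13) missed the threshold (limma adjusted p = 0.0541; 0.0367 without activated T array 1) and was 0.01 in the fit blocked by array set. Arc read 110, 112, 140 and 87 on activated T arrays, against 89.9, 82.8 and 67.3 on conventional T arrays, which overlapped. Its log2 difference was 0.41 (SE 0.17, limma adjusted p = 0.145). Junb, Egr1, Nr4a1 and Btg2, 4 of 8, did not overlap between these groups, nor did 22.7% of all tested genes. Btg2 is counted by its brighter probe set, which was higher on activated T arrays. The dimmer one (1448272_at) did not overlap either but was lower there (log2 difference -0.17, SE 0.11, limma adjusted p = 0.341). The remaining differences were -0.13 for Fos, -0.23 for Junb, 0.18 for Dusp1, 0.01 for Ier2 and 0.15 for Btg2, none of which passed. The members' median difference was 0.08 and that of all tested genes 0.01. Without the filter on dim genes Fosb differed by -0.08 (SE 0.05) and Npas4 by 0.09 (SE 0.12), neither of which passed.

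The comparison of activated with unstimulated natural Treg labels gave 3 calls of 8, the most of any comparison, where 16.6% of all tested genes were called, and the same 3 had an unadjusted p under 0.05, as 32.2% of all genes did. This comparison differs in both stimulation and TGF-beta. Junb fell: it read 32.3, 19.9 and 21.2 on activated natural Treg arrays, against 42.6, 43.4, 39 and 40.5 on natural Treg arrays. The groups did not overlap, and all 3 activated natural Treg values lay under the table's median. The log2 difference was -0.52 (SE 0.13, limma adjusted p = 0.0123), and it was -0.44 and did not pass without activated natural Treg array 2 (adjusted p = 0.0606). Fos also fell: it read 390.5, 387 and 369 on activated natural Treg arrays, against 433, 476, 474 and 469 on natural Treg arrays. All 3 activated natural Treg arrays were below the lowest natural Treg array, with a log2 difference of -0.27 (SE 0.09, limma adjusted p = 0.04). The Fos call held in 1 of the 7 fits that each leave out 1 array of these groups, the one without natural Treg array 1 (0.0428), and the adjusted p reached 0.108. It also ended with array medians scaled to one value, where the difference was -0.15 (limma adjusted p = 0.279).

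Dusp1 rose: it read 662, 658 and 646 on activated natural Treg arrays, against 504, 435, 531 and 446 on natural Treg arrays. The 3 activated natural Treg arrays lay close together and above every natural Treg array, with a log2 difference of 0.44 (SE 0.14, limma adjusted p = 0.0325). Activated T arrays 2 and 3, at 652.5 and 700, also read high. On the values as deposited, where the median gene differed by -0.52, Dusp1 differed by -0.11. The Dusp1 call ended without any 1 of the activated natural Treg arrays or without natural Treg array 2 or 4, with adjusted p between 0.0604 and 0.0854 in those 5 fits. Egr1 read 525, 510 and 495 on activated natural Treg arrays, against 638, 565, 618 and 563 on natural Treg arrays, which did not overlap, and its difference of -0.22 (SE 0.13) did not pass (limma adjusted p = 0.24). Nr4a1 read 135, 141 and 135 on activated natural Treg arrays, against 120, 132, 129 and 112 on natural Treg arrays, and its difference of 0.14 (SE 0.07) did not pass either (0.175). With Junb, Fos and Dusp1 these made 5 of 8 members without overlap, where 30% of all tested genes had none. The others differed by -0.09 (Arc), 0.13 (Ier2) and -0.17 (Btg2). Among them Ier2 read 126.9, 96.5 and 92.6 on activated natural Treg arrays, against 91.8 to 96.8 on natural Treg arrays, so that 1 array carried its mean. Btg2 is counted by its brighter probe set, which overlapped. The dimmer one (1448272_at) read 48.9 to 54.4 on activated natural Treg arrays, against 63.6 to 71.8 on natural Treg arrays, without overlap. Its difference of -0.29 (SE 0.11) did not pass (limma adjusted p = 0.0602). The members' median difference was -0.13 and that of all tested genes 0.

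**Figure D3:**
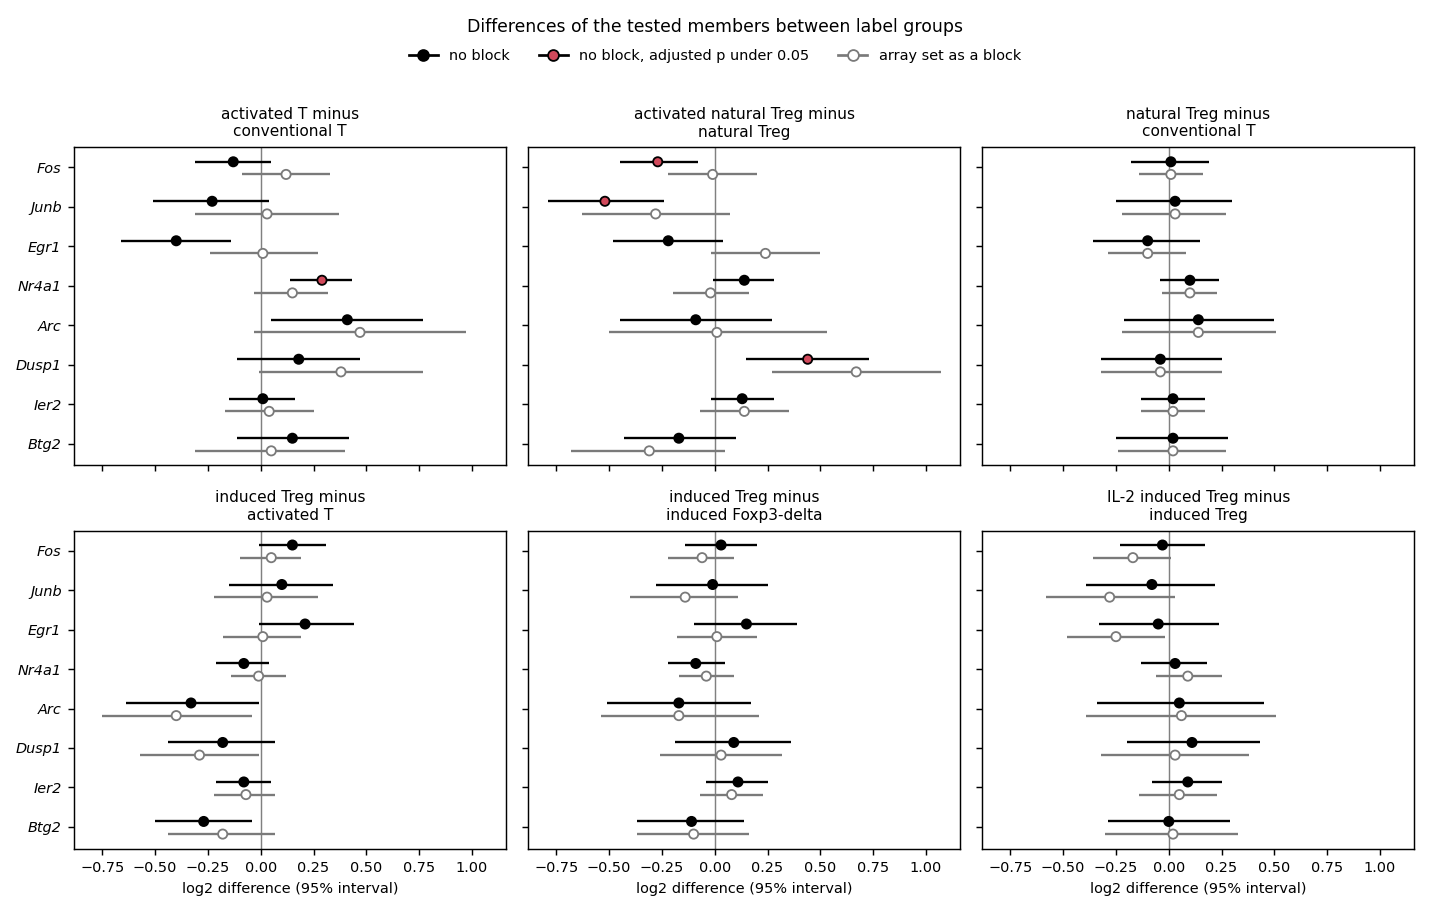
Log2 differences of the 8 tested members (points) with 95% intervals (lines) in 6 comparisons of label groups, fitted without a block (filled; red where the adjusted p was under 0.05) and in the fit blocked by array set (open). Red points appear for Nr4a1 (0.29) among activated minus conventional T labels and for Fos (-0.27), Junb (-0.52) and Dusp1 (0.44) among activated minus unstimulated natural Treg labels, and no open point is a call; on values as deposited Nr4a1 (-0.22) and Dusp1 (-0.11) turned sign.

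In both stimulation comparisons the groups compared share no array set, so label and set could be separated only through the labels that span sets. In the fit blocked by array set, 0 of 8 members were called in either comparison, where 0.0986% and 0.37% of all genes were. The differences became -0.28 for Junb (limma adjusted p = 0.515), -0.01 for Fos (0.982) and 0.67 for Dusp1 (0.135). The labels induced Treg and failed induced Treg hold arrays of both the 10-array and the 15-array set, so these show the members' difference between sets within a label. Fos read 438 on the induced Treg array of the 10-array set, against 525 and 485 on those of the 15-array set, and 385 against 526 and 477 among failed induced Treg arrays. Junb read 28.6 against 42.7 and 39.9 among induced Treg arrays, and 28.8 against 41.2 and 39.4 among failed induced Treg arrays. Both genes were thus lower in the 10-array set within a label, by 0.20 and 0.37 log2 units for Fos and 0.36 and 0.33 for Junb. Egr1 read 446 against 663 and 684 among induced Treg arrays, and 531 against 713 and 609 among failed induced Treg arrays. Nr4a1 was higher in the 10-array set, at 140 against 127 and 124 among induced Treg and 135 against 122 and 123 among failed induced Treg arrays. Dusp1 went the other way from its label difference among induced Treg arrays, at 446 against 516 and 482. Failed induced Treg arrays read 367 against 496 and 492. These rest on 1 array of the 10-array set per label, and within that set Dusp1 ran from 349 to 700. Activated T arrays 2 and 3 (652.5 and 700) and natural Foxp3-delta array 2 (618) of that set also read high.

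Some signs of RNA quality and some cell markers also differed between the labels of both stimulation comparisons. The ratio of 3' to 5' actin probe sets was 2.05 to 2.13 on activated natural Treg arrays and 1.73 to 1.84 on natural Treg arrays, and it was 1.62 to 1.99 on activated T arrays and 1.79 to 1.8 on conventional T arrays. The same ratio of Gapdh probe sets was 0.904 to 1.02 on activated natural Treg and 1.01 to 1.03 on natural Treg arrays. It was 0.854 to 0.986 on activated T and 0.999 to 1.03 on conventional T arrays. In the 10-array set the actin ratio was 1.93 on activated T array 2, 1.99 on array 3 and 2.19 on natural Foxp3-delta array 2. It was 1.76 to 1.83 on the arrays of that set where Dusp1 read 349 to 446. The summed level of the 8 neuron markers was 45000 to 51300 on activated natural Treg arrays and 51500 to 54200 on natural Treg arrays, and that of the 12 T cell markers was 313 to 350 and 297 to 306. On activated T arrays the neuron sum was 48600 to 50700 and the T cell sum 318 to 365, against 48200 to 52900 and 289 to 307 on conventional T arrays. The astrocyte sum was 34500 to 39000 on activated T and 30600 to 34000 on conventional T arrays. It was 33000 to 37900 on activated natural Treg and 31700 to 36800 on natural Treg arrays, which overlapped. The myelin, microglia and vascular sums overlapped in both comparisons. The part of RNA quality and cell markers in the differences of Junb, Fos, Dusp1 and Nr4a1 was not tested.

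Whether the stimulation differences themselves differed between natural Treg and T labels was tested as an interaction in limma. No member passed (0 of 8, with 0 at an unadjusted p under 0.05), where 0% of all tested genes passed and 7.61% had such a p. Blocked by array set, 0 of 8 passed and 0.0411% of all genes did. The largest was Arc at -0.50 (SE 0.25, 95% interval -1.01 to 0, limma adjusted p = 0.661), and Junb stood at -0.28 and Dusp1 at 0.26. The calls of Nr4a1 in one comparison and of Junb, Fos and Dusp1 in the other are therefore not shown to differ between them.

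The remaining comparisons gave no call among the members. Natural Treg minus conventional T labels asks how unstimulated Treg differ from other unstimulated CD4+ cells. There 0 of 8 members passed in limma (0 at an unadjusted p under 0.05), where 0.00822% of all tested genes were called and 2.64% had such a p. The largest difference was 0.14 for Arc, and Fos, Ier2 and Btg2 differed by 0.02 or less. The intervals of the 8 members ran from -0.36 to 0.5, and each member overlapped between the groups, where 6.72% of all genes did not. Both groups lie wholly in the 15-array set, so no difference between sets enters this comparison. Npas4, outside the filter, differed by 0.31 (SE 0.12) in a fit of all 18194 genes, with an unadjusted limma p of 0.0167 and an adjusted p of 1. Npas4 read 37.6, 27.6, 26.6 and 36.4 on natural Treg arrays, against 21.1, 25.1 and 21.8 on conventional T arrays, all under the table's median.

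Induced Treg minus activated T labels asks what TGF-beta with sorting on the Foxp3 reporter adds to stimulation. In limma 0 of 8 members passed, where 0.0493% of all tested genes did, and Arc and Btg2, 2 of 8, had an unadjusted p under 0.05, where 10.9% did. No member of the 8 was without overlap between these groups, where 1.91% of all genes were. Arc read 79.7, 95.5, 90, 89.8 and 72.4 on induced Treg arrays, against 110, 112, 140 and 87 on activated T arrays, which overlapped. Its log2 difference was -0.33 (SE 0.15, 95% interval -0.64 to -0.01, limma adjusted p = 0.441), and that of Btg2 was -0.27 (SE 0.11, adjusted p = 0.418). The dimmer Btg2 probe set (1448272_at) differed by 0.07 (SE 0.09, limma adjusted p = 0.81). Egr1 differed by 0.21 and Fos by 0.15.

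Induced Treg minus induced Foxp3-delta labels asks what an intact Foxp3 allele adds in induced cells. In limma 0 of 8 members passed (0 at an unadjusted p under 0.05), where 0% of all tested genes were called, 2.82% had such a p and 1.94% did not overlap. The differences lay between -0.17 (Arc) and 0.15 (Egr1), with intervals from -0.51 to 0.39. IL-2 induced Treg minus induced Treg labels asks what the further week in interleukin 2 changes. In limma 0 of 8 members passed there as well (0 at an unadjusted p under 0.05), where 2.18% of all tested genes did and 17.1% had such a p, and the largest difference was 0.11 for Dusp1. Dusp1 read 524 and 539 on IL-2 induced Treg arrays, against 446 to 521 on induced Treg arrays, and was the 1 member of 8 without overlap, where 24.3% of all tested genes had none. In the fit blocked by array set the count stayed at 0 of 8 in these 4 comparisons, where 0.0247%, 0.0329%, 0% and 1.68% of all genes were called. Failed induced Treg, natural Foxp3-delta and IL-2 induced Foxp3-delta labels entered the F test only.

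Whether the members varied together was asked by correlation, for which each pair of the 8 tested members was taken over the 31 arrays. Of 28 pairs, 11 were positive and 17 negative, with a median r of -0.04 and a range from -0.59 to 0.51. Egr1 with Nr4a1 was the pair that passed Benjamini-Hochberg adjustment over the 28 (Pearson r = -0.59, permutation p = 0.00051, adjusted p = 0.0143; Spearman rho = -0.66, adjusted permutation p = 0.00224). Its r was -0.60 without the 2 arrays whose Egr1 lay farthest from the median. Within the sets of 15, 10 and 6 arrays it was -0.32, 0.01 and -0.41, none of which passed: the sign was that of the pooled value in the sets of 15 and 6, and r was near 0 in the set of 10. It was -0.42 among residuals from the label group means (adjusted permutation p = 0.444). With array medians scaled to one value no pair passed, this one included. Fos with Egr1 (r = 0.51) and Fos with Junb (r = 0.48) had an adjusted permutation p of 0.0504 each, and passed by Spearman rank (rho = 0.55, adjusted permutation p = 0.0146; rho = 0.52, 0.0198). Without the 2 farthest arrays r was 0.51 and 0.42. Fos with Egr1 had r of 0.51, -0.65 and -0.06 within the sets of 15, 10 and 6 arrays, and Fos with Junb 0.24, 0.38 and -0.34, so neither kept its sign in all 3 sets. By rank 5 of 28 pairs passed, the other two being Junb with Nr4a1 (rho = -0.58) and Junb with Egr1 (rho = 0.49). Within any 1 set, and among residuals from the label group means, 0 of 28 pairs passed. The small sets limit that test. Junb with Nr4a1 had r of -0.53, -0.01 and -0.93 within the sets of 15, 10 and 6 arrays. In the set of 6 its permutation p was 0.00972 and its adjusted permutation p 0.272.

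On the values as deposited all 28 pairs were positive, with r from 0.43 to 0.92 and a median of 0.76, and 28 passed. The deposited medians of the arrays ran from 22.2 to 55.4, and every gene on an array shares that level. Fos with Egr1 had r = 0.92 as deposited and 0.51 after quantile normalisation, and Egr1 with Nr4a1 had 0.84 and -0.59.

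**Figure D4:**
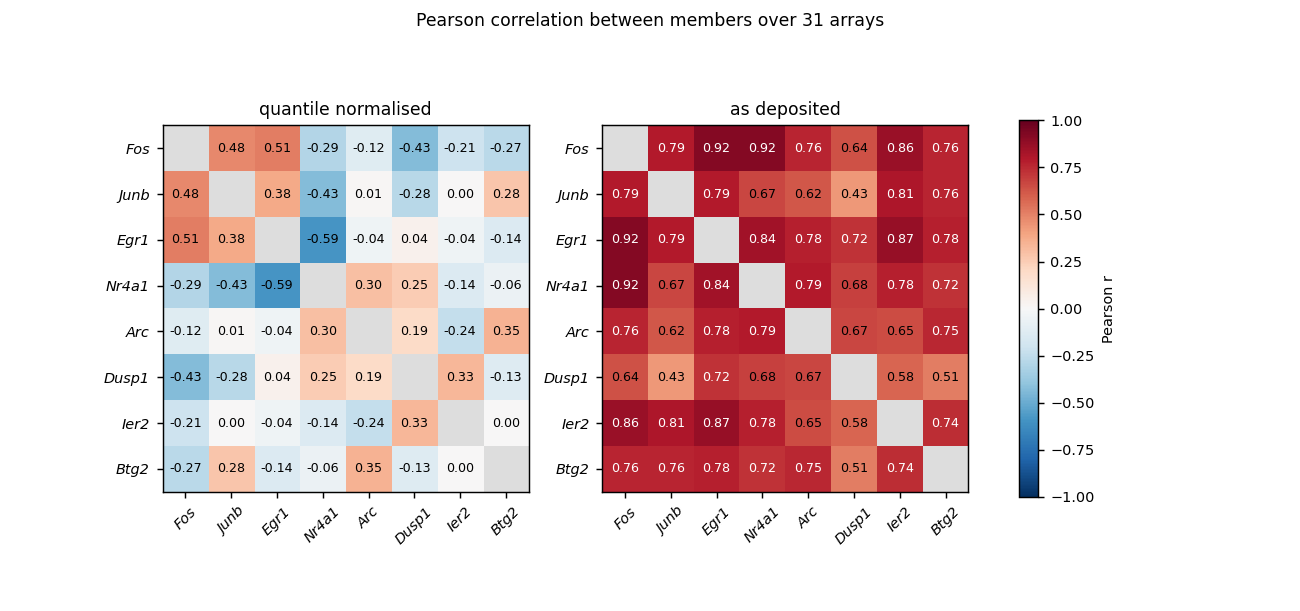
Pearson r (colour and number) of each pair of the 8 tested members over 31 arrays, on quantile normalised values (left) and on values as deposited (right). On the left both signs occur, from -0.59 (Egr1 with Nr4a1) to 0.51 (Fos with Egr1), while on the right every pair is positive, from 0.43 to 0.92.

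Genes whose pattern was most like the members' average were sought by Pearson r with the members' mean z-score over the 31 arrays, given here without a test. The members share little of one pattern: their own r with that mean ran from 0.01 (Nr4a1) and 0.24 (Fos) to 0.53 (Junb and Arc), so the genes found are like the mean and not like each member. They were Zfp30 (r = 0.67), Fbh1, Rnf19b and Mpp7 (0.62 each), Glce and Anapc16 (0.61 each), and Aimp1, Ap4b1, Gigyf1 and Zfp120 (0.6 each). Zfp30 had r between 0.66 and 0.67 in each of the 3 array sets, but Fbh1 (-0.18), Ap4b1 (-0.19) and Aimp1 (-0.34) were negative in the set of 6 arrays, and Glce was at 0.05 there. Single members had closer partners: Egr1 with Foxo3 (r = 0.9), Fos with Rnf139 (0.81), Ier2 with S100a16 (0.79), Nr4a1 with Retreg1 (0.77), Dusp1 with Btg1 (0.74), Junb with Znhit3 (0.72), Arc with Herpud2 (0.71) and Btg2 with Tbxas1 (0.66). The arrays share RNA source, set and scaling, and none of these partners is a member.

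Other immediate early and rapid response genes were taken as a list. Of 52 listed, 50 were on the array and 43 were tested. The F test called 4 of them (9.3%, against 13.6% of all tested genes): Sgk1, a kinase of the rapid stress response, Jund, an AP-1 subunit, Rgs2, a regulator of G protein signals, and Ier5. Between activated and conventional T labels 4 passed in limma (9.3%, against 6.71% of all tested genes): Fosl2 (0.48, adjusted p = 0.046), an AP-1 subunit, and Dusp5 (0.26, 0.0403), a MAP kinase phosphatase, rose, while Sgk1 (-0.65, 0.00821) and Pim1 (-0.24, 0.0411), a kinase downstream of cytokine receptors, fell. Sgk1 averaged 450 ± 87.7 on activated T arrays and 707 ± 21.6 on conventional T arrays (SD, n = 4 and 3). Between activated and unstimulated natural Treg labels 3 passed in limma (6.98%, against 16.6% of all tested genes): Jund rose (0.44, adjusted p = 0.0149), while Ier5 (-0.66, 0.00397) and Nr4a3 (-0.18, 0.033), a paralog of Nr4a1, fell. Ier5 averaged 112 ± 28.9 on activated natural Treg arrays and 184 ± 5.88 on natural Treg arrays (n = 3 and 4). The list's median difference was 0.03 and 0.04 in these comparisons, and 0 of its genes passed in either in the fit blocked by array set.

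Of 23 listed upstream kinases and factors, 18 were tested. Creb1, which binds the CRE, fell in both stimulation comparisons in limma, with log2 differences of -0.51 (adjusted p = 0.0222) for activated minus conventional T and -0.45 (0.0212) for activated minus unstimulated natural Treg labels. It averaged 421 ± 50.5 on activated T and 603 ± 30 on conventional T arrays, and 440 ± 49.2 on activated natural Treg and 603 ± 13.3 on natural Treg arrays. Elk3, a ternary complex factor, rose in both, at 0.2 (adjusted p = 0.0191) and 0.16 (0.0325), and Crtc1, a coactivator of CREB, fell in the first, at -0.34 (0.0479). These made 3 of 18 (16.7%, against 6.71% of all tested genes) and 2 of 18 (11.1%, against 16.6%). In the fit blocked by array set none of the 3 passed: Creb1 differed by -0.07 and 0.07 and Crtc1 by -0.13 in the first, while Elk3 kept its size at 0.22 (limma adjusted p = 0.183) and 0.16 (0.275). The list's median difference was -0.02 and -0.03 in these comparisons.

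Of 14 listed genes that follow T cell activation, 6 were tested. Between activated and unstimulated natural Treg labels 3 of the 6 passed in limma, where 16.6% of all tested genes did. Batf, an AP-1 partner in lymphocytes, rose by 0.68 (adjusted p = 0.0249) and Bcl2l1, a survival factor, by 0.35 (0.0271), while Tnfrsf9, a costimulatory receptor, fell by 0.27 on the log2 scale (0.0246). Bcl2l1 also rose between activated and conventional T labels by 0.52 (adjusted p = 0.00836). None of these 4 results passed in the fit blocked by array set, where Batf turned sign at -0.13 (limma adjusted p = 0.691), Tnfrsf9 stood at 0.01 (0.975), and Bcl2l1 at 0.16 (0.682) between the natural Treg labels and 0.36 (0.381) between the T labels. Between IL-2 induced Treg and induced Treg labels Tnfrsf9 fell by 0.37 (adjusted p = 0.0311), and by 0.46 in the fit blocked by array set (0.00104). The F test called Creb1 and Elk3, 2 of the 18 upstream genes (11.1%), where 13.6% of all tested genes were called. It also called Tnfrsf9 and Bcl2l1, 2 of the 6 genes that follow T cell activation (33.3%). Of the 3 lists, Tnfrsf9 alone passed the F test blocked by array set (limma adjusted p = 0.000613). No further comparison called a gene of these 3 lists in the fit without a block. The fit blocked by array set made 4 further calls, named here after their values were seen. Tnfrsf9 passed there for activated minus conventional T labels (0.45, limma adjusted p = 0.0113, against 0.21 and 0.107 without the block), for natural Treg minus conventional T labels (0.41, 0.000639, against 0.41 and 0.172) and in the interaction (-0.44, 0.0214, against -0.49 and 0.181). Rgs2 passed there for IL-2 induced minus induced Treg labels (-0.41, limma adjusted p = 0.0428, against -0.31 and 0.0908 without the block). Tnfrsf9 was dim: it read 38.5 to 40.3 on natural Treg arrays and 25.6 to 26.2 on conventional T arrays. Only the natural Treg and failed induced Treg labels held an array above the table's median of 39.82, so it entered the tests through those labels.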

How the data were processed

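The deposited table gives 1 linear intensity per probe set for each of 31 arrays. Per the labels' protocols, the authors isolated total RNA with Trizol and RNeasy columns and made biotin-labelled cRNA by the standard Affymetrix protocol; probe summary, background correction and scaling are not given in the sources used here. The array medians of the deposited intensities differed, so the values were quantile normalised (limma 3.58.1 in R 4.3.3) and taken as log2(intensity + 16).

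Each gene was represented by its brightest probe set among the 34958 that carry 1 symbol (932 carry several and 9211 none that is listed). Genes above the table's median on at least 2 arrays were tested, 12169 of 18194. One mean per label group was fitted over all 31 arrays with lmFit and eBayes (21 residual degrees of freedom), p-values were adjusted over all tested genes by the Benjamini-Hochberg method, and an adjusted p under 0.05 was a call. Correlations used 100000 permutations. The number of arrays limits the precision. No 2 arrays held identical values, and their correlations ran from 0.981 to 0.998.

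The members, lists, marker lists, comparisons, array sets and alternatives were chosen with earlier results of these data known, and none of them is independent evidence. Members are all named; from other lists, called genes are named, up to 4 a comparison. The array sets came from Ward clustering on the cre to bioB control ratio, the deposited median and the 99th percentile. Promoter sequences and symbols come from RefSeq (GRCm38.p6). Same-numbered replicates of different groups deviated from their group means with correlations between -0.23 and 0.11, with 1 of 18 pairs over 0.1, so the numbers were not taken to pair the samples. The scripts were tested on simulated data.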

Additional observations from a re-analysis of the deposited data

Results flagged for a closer look

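Among the 33 combinations of probe set and group with 4 or 5 arrays, 6 (18.2%) held an array set far apart from the rest of its group, where chance gives about 1 in 20. The share over all probe sets was not computed. The combinations are not independent, since they share arrays and include both Btg2 probe sets. Fos read 433 on natural Treg array 1, the lowest of 4, against 469 on the next array. Fosb read 10.8 on activated T array 4, against 13.3 on the next, both under the negative controls' 95th percentile. Npas4 read 19.6 on induced Treg array 3, against 29.5 on the next of 5 arrays. The same array was low for the dimmer Btg2 probe set (1448272_at), at 49.4 against 63.3. Natural Treg array 4 was the highest of its group on both Btg2 probe sets, at 111 against 103 (1416250_at) and at 71.8 against 64.6 (1448272_at).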

How the results depend on the processing

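Scaling moved the members most. On the values as deposited, the median gene differs by -0.36 between activated and conventional T labels, by -0.52 between activated and unstimulated natural Treg labels and by 0.45 between induced Treg and activated T labels. There Nr4a1 (-0.22 and -0.51 in the first and second comparison, 0.42 in the third), Ier2 (-0.52 in the second, 0.41 in the third) and Dusp1 (-0.11 in the second) reversed. The members called numbered 4 in the F test, 7 in the second comparison and 6 in the third, where 6074, 7132 and 7399 of all genes were called. The same values gave 28 correlated pairs and 5 members under the median gene's SD. With array medians scaled to one value, 2 members were called in the F test and 2 between activated and conventional T labels, where 3976 and 3947 of all genes were called, Fos lost its call between the natural Treg labels (-0.15, adjusted p = 0.279), and 0 pairs passed, Egr1 with Nr4a1 included. A pseudocount of 1 gave 3 pairs, one of 64 gave 2, and 0 passed within the sets of 10, 15 or 6 arrays or among residuals. The F test called 1 member without the filter on dim genes and 1 with the mean of a gene's probe sets. In these fits 1732 and 1188 of all genes were called. Blocked by array set, 0 members were called between activated and conventional T labels and 0 between the natural Treg labels.

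Leaving out 1 array at a time gave 0 to 2 members called in the F test, where 1060 to 2259 of all genes were called. It gave 0 to 2 between activated and conventional T labels, where 97 to 1294 were, and 0 to 3 between the natural Treg labels, where 1133 to 1800 were. The arrays that end each call are named above. With the replicate number as a block, 1 member was called in the F test (Egr1, adjusted p = 0.0246), and 2 between activated and conventional T labels, Nr4a1 and Egr1 (-0.33, adjusted p = 0.0409). Between the natural Treg labels that block called Egr1 (-0.28, 0.045) and lost Dusp1 (0.39, 0.0595). Of all genes it called 1763 in the F test, 809 between activated and conventional T labels and 2250 between the natural Treg labels. The causes of these changes were not tested. Counts over all genes moved with scaling as well: between activated and conventional T labels 1367 genes were called as deposited and 12 blocked by array set, against 816, and between the natural Treg labels 2758 with scaled medians and 45 blocked by array set, against 2016.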
